A study of Mus musculus with 2 samples.

Results

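The genes described here are 6 ligands of the epidermal growth factor (EGF) family (Areg, Ereg, Hbegf, Btc, Tgfa and Nrg1), 3 of their ErbB receptors (Egfr, Erbb2 and Erbb3) and the receptor inhibitor Errfi1. They were chosen by symbol, and all 10 are rows of the table of 27998 genes. The study asked how activation of the Hedgehog (Hh) pathway in the wound dermis bears on hair follicle regeneration. Its single-cell libraries come from Tomato+ cells sorted out of the separated wound dermis 3 days after complete re-epithelialization. There was 1 control library (SM22rtTA; tetO-Cre; R26-Tomato mice) and 1 SM22-SmoM2 library (SM22rtTA; tetO-Cre; R26-SmoM2/Tomato mice). All mice were 4 to 5 weeks old and received doxycycline at 20 g/kg of chow from day 1 after wounding. In both genotypes the SM22 promoter drives rtTA, doxycycline lets rtTA switch on Cre, and Cre marks the cells with Tomato. In SM22-SmoM2 mice Cre also switches on SmoM2, an active form of Smoothened. Cells are therefore limited to those in which this promoter was active, and each library pooled wounds of several mice of either sex.

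EGF-family ligands are made as membrane proteins and are released from the cell surface by metalloproteases such as ADAM17. Areg, Hbegf, Ereg, Btc and Tgfa bind Egfr, while Nrg1 binds Erbb3, which has little kinase activity of its own and signals through a partner such as Erbb2, a receptor without a known ligand. Activated receptors drive the MAPK cascade, which switches on immediate early genes as well as its own inhibitors, and Errfi1 is an induced protein that binds the Egfr kinase and blocks it. In skin these ligands are best known from keratinocytes, and the Nrg1 to Erbb3 axis is the classic survival signal for Schwann cells.

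Each value is a count of unique molecular identifiers (UMIs), which stand for captured transcript molecules. Counts were summed over the cells of a lineage and divided by all UMIs of that lineage in that library, and are given as counts per 1000000 UMIs (CPM). Brackets after a value hold 95% intervals, which cover counting error only. With 1 library per condition no test between conditions can be made, so differences between libraries are described and cannot be told apart from differences between the pools of mice. A gene is called past 2-fold in a lineage where the ratio is 2 or more in either direction, and only genes with at least 10 UMIs over both libraries are counted.

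The control library held 2856 cells after filtering and 30103855 UMIs, and the SM22-SmoM2 library held 1792 cells and 17814222 UMIs. Cells had a median of 8607.5 UMIs in control and 8837.5 in SM22-SmoM2. K-means clusters without the genes described here were named from marker lists. Fibroblasts numbered 1030 and 1040 cells (control and SM22-SmoM2), endothelial cells 702 and 270, Schwann cells 680 and 294, mural or muscle cells 273 and 94, and immune cells 81 and 32. All 8 fibroblast markers and all 8 Schwann markers were detected in the lineage they name in both libraries. Detection alone does not set lineages apart, since all 8 fibroblast markers also had UMIs in endothelial, Schwann, muscle and immune cells. The Schwann markers summed to 3507 and 3151 CPM in Schwann cells and to 41.4 and 42.4 in fibroblasts. The sum of the fibroblast markers was 56172 CPM in control fibroblasts and 34307 in SM22-SmoM2 fibroblasts. In Schwann cells the same markers summed to 5890 and 5485 CPM, and the source of these UMIs was not tested. A further 51 cells of the SM22-SmoM2 library formed a cluster that reached 3 raised markers of no list and is called unnamed. Its best list was that of fibroblasts, with 2 of 8 markers raised and a marker sum of 7825 CPM. Wif1, Rspo3 and Alpl were among its leading genes. These cells are left out of all fibroblast values given here. Among fibroblasts called by sex-linked genes, 76.1% were male in control and 94.4% in SM22-SmoM2. The sort on Tomato and the lineage sizes set the shares of UMIs given for each gene, which are to be read beside the shares of all UMIs. Fibroblasts held 45.1% of all UMIs in control and 67.4% in SM22-SmoM2. Endothelial cells held 27.3% and 13.4%, and Schwann cells 15.7% and 11.3%. SmoM2 and Smo cannot be separated in the table, where Smo was at 52.8 (49.0 to 56.8) CPM in control and 56.4 (52.2 to 60.8) in SM22-SmoM2 fibroblasts. The Hh target Ptch1 was at 12.4 (10.6 to 14.5) in control and 144 (137 to 151) in SM22-SmoM2 fibroblasts, and Gli1 at 5.38 (4.21 to 6.76) and 31.2 (28.1 to 34.5).

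Areg and Errfi1 showed the 2 largest ratios of these genes in fibroblasts. For each, a promoter window is shown that was picked because it carries a cAMP response element (CRE) close to the start. The sequences are from RefSeq on GRCm38.p6, where 6 of the 10 genes had an entry, and run over the 250 bases before the start on the plus strand. The Areg region is chr5:91139349-91139598, which directly precedes the annotated gene. The Errfi1 region is chr4:150854820-150855069. It precedes the second start, outside the exons of Errfi1 and inside the span of its longer transcript, and shares 130 bases with the opposite-strand gene 1700045H11Rik. Capitals mark the CRE.
Areg promoter: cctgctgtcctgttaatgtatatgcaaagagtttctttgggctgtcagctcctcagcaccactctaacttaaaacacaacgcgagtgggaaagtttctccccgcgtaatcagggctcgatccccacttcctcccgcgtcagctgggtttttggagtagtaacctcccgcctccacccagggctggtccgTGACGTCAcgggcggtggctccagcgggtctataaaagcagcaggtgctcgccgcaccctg
Errfi1 promoter: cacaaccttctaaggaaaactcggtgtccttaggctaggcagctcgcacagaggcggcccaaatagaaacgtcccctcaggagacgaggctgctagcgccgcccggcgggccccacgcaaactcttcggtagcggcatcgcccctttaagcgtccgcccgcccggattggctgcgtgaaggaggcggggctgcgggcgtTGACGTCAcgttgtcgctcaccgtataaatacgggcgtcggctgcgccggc

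The motif TGACGTCA, which reads the same on both strands, lies 53 bases before the start of Areg and 43 bases before this start of Errfi1. It occurs in 508 of 32851 such windows in the whole table, or 1.55%. The window before the first Errfi1 start, chr4:150853546-150853795, has no CRE. Because the windows shown were picked for holding the motif, that share is given as background only. An AP-1 motif (TGANTCA, in 6.75% of windows) and a GLI motif (GACCACCCA, in 0.225%), searched on both strands, had no match in the 7 windows of the 6 genes. A match is a description and not a shown binding site, and no match says only that these letters are not in this window.

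Areg encodes amphiregulin, a ligand that is selective for Egfr. It lies on chromosome 5 (91139599 to 91148432, plus strand, GRCm38), 45952 bases after Ereg and 208828 bases before Btc, in a run of 4 neighbouring ligand genes that opens with Epgn. In fibroblasts there were 53 Areg UMIs in control and 758 in SM22-SmoM2, or 3.90 (2.92 to 5.11) and 63.2 (58.7 to 67.8) CPM, a ratio of 16.2 and a log2 ratio of 4.02 (3.61 to 4.45). The levels did not overlap within counting error. A single control cell held 32 of the 53 control UMIs, and without the top cell of each library the log2 ratio was 5.24 (4.62 to 5.94). In SM22-SmoM2 the UMIs lay in 100 of 1040 fibroblasts, and the 15 cells with the most held 392 of them, or 51.7%. Areg UMIs were thus gathered in a small share of fibroblasts in either library.

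Outside the fibroblasts Areg was low in most lineages. Endothelial cells were at 1.71 (0.932 to 2.86) CPM in control and 2.10 (0.683 to 4.91) in SM22-SmoM2. Schwann cells were at 4.65 (2.91 to 7.04) and 3.96 (1.71 to 7.81). Neither pair differed beyond its intervals. Mural or muscle cells had 19 UMIs in control and 2 in SM22-SmoM2, a log2 ratio of -1.44 (-4.58 to 0.61), which spans 0. Their level was 10.1 (6.11 to 15.8) CPM in control, above that of control fibroblasts, and 3.74 (0.453 to 13.5) in SM22-SmoM2. The 16 control keratinocytes, a lineage known for Areg, were at 49.4 (27.7 to 81.6) CPM from 15 UMIs in 4 cells. Immune cells had 0 Areg UMIs in control, which allows up to 4.37 CPM, and 30 in SM22-SmoM2, or 82.8 (55.9 to 118) CPM, at least 18.9-fold higher against a floor of 3 UMIs. Those 30 UMIs came from 3 of 32 cells, with 17 in 1 cell, and in these immune cells the fibroblast markers summed to 6496 CPM against 3621 in control immune cells. The part of those UMIs in the immune value was not tested. Fibroblasts held 43.1% (34.2 to 52.3) of all Areg UMIs in control, near their 45.1% of all UMIs, and 93.9% (92.1 to 95.5) in SM22-SmoM2, where they held 67.4% of all UMIs.

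**Figure D1:**
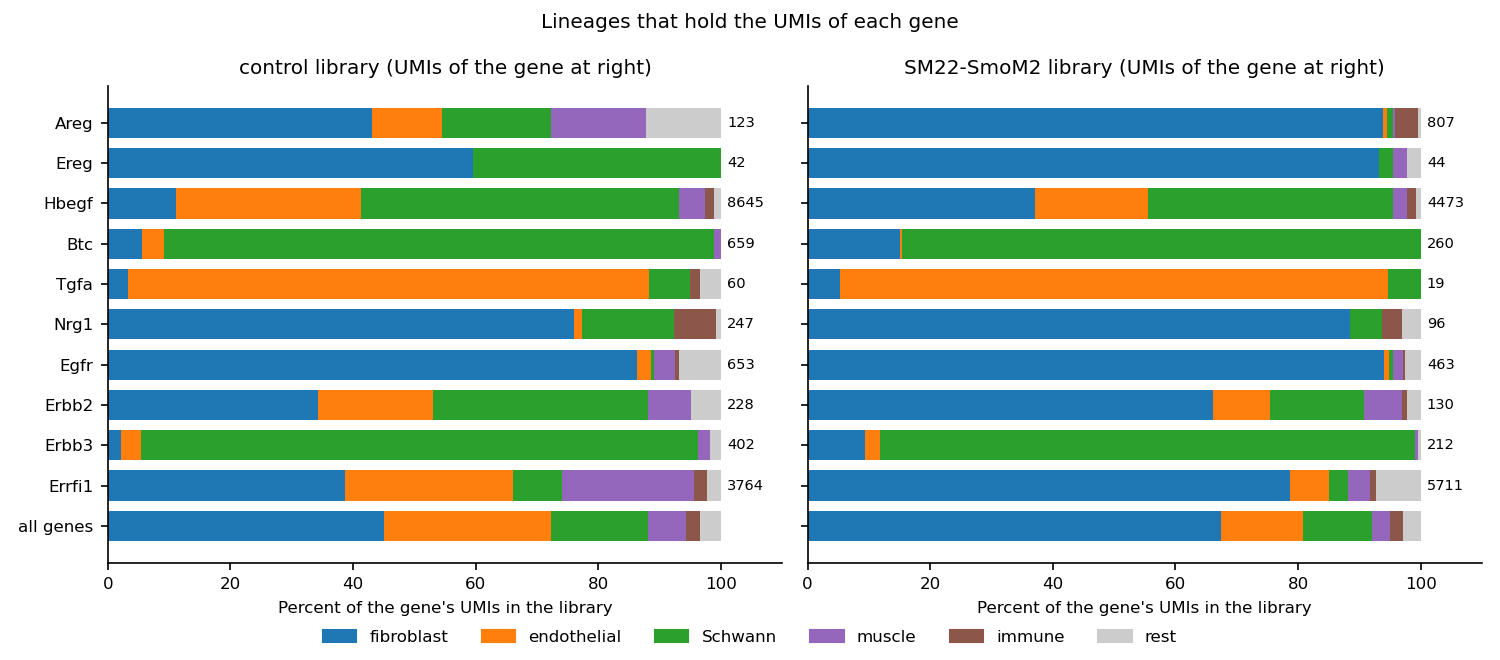
Share of each gene's UMIs by lineage (x axis, percent of the gene's UMIs in that library) for the control library (left) and the SM22-SmoM2 library (right). Each bar is 1 gene, colors are lineages, rest joins keratinocytes, mixed and unnamed cells, and the bottom bar gives the share of all UMIs. Areg passed from 43.1% to 93.9% fibroblast, Btc and Erbb3 lay mostly in Schwann cells and Tgfa in endothelial cells.

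Ereg encodes epiregulin, a ligand of Egfr and Erbb4. It is the gene before Areg on chromosome 5 (91074622 to 91093646, plus strand), and Gm19610 overlaps it on the other strand. The strand used in counting is not given in the sources used here, so reads of such opposite-strand partners, which Tgfa, Nrg1, Egfr, Erbb2 and Errfi1 also have, cannot be told apart here. Fibroblasts had 25 UMIs in control and 41 in SM22-SmoM2, or 1.84 (1.19 to 2.72) and 3.42 (2.45 to 4.63) CPM, a log2 ratio of 0.89 (0.14 to 1.67). Without the top cell of each library the log2 ratio was 0.65 (-0.16 to 1.49), which kept its sign but spans 0. In Schwann cells there were 17 UMIs in control and 1 in SM22-SmoM2, or 3.59 (2.09 to 5.75) and 0.495 (0.0125 to 2.76) CPM, a log2 ratio of -2.86 (-8.24 to -0.18). Endothelial and immune cells had no Ereg UMI in either library, which in endothelial cells allows up to 0.365 and 1.26 CPM. Ereg was thus a rare transcript found in fibroblasts and, in the control library, Schwann cells.

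Hbegf encodes heparin-binding EGF, a ligand of Egfr and Erbb4 that also acts while still tethered to the membrane, and lies on chromosome 18. It had the most UMIs of the ligands, 8645 in control and 4473 in SM22-SmoM2, and it was found in each of the 5 lineages. Schwann cells were highest at 948 (920 to 976) CPM in control and 888 (847 to 930) in SM22-SmoM2, followed by endothelial cells at 317 (305 to 330) and 344 (321 to 368). Muscle cells at 191 (172 to 212) and 183 (149 to 223) and immune cells at 194 (162 to 230) and 182 (141 to 232) did not differ from each other beyond their intervals. Fibroblasts were lowest of the 5 lineages in both libraries, though in SM22-SmoM2 their interval met that of immune cells, and they were the lineage that differed most between libraries. Their level was 71.4 (67.0 to 76.0) in control and 139 (132 to 145) in SM22-SmoM2, a ratio of 1.94 and a log2 ratio of 0.96 (0.84 to 1.07), just under 2-fold. With 30 clusters, or with the listed genes kept in the clustering, the log2 ratio was 1.51 and 1.55, past 2-fold. Those settings had fewer control fibroblasts, 944 and 889 in place of 1030, and 1054 and 1050 SM22-SmoM2 fibroblasts in place of 1040. The log2 ratio was 0.12 (0.00 to 0.23) in endothelial cells, -0.094 (-0.17 to -0.01) in Schwann cells, -0.06 (-0.40 to 0.27) in muscle cells and -0.09 (-0.54 to 0.35) in immune cells. Schwann cells held 51.9% of Hbegf UMIs in control and 40.1% in SM22-SmoM2, and fibroblasts 11.2% and 37.2%.

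Detection in single cells gave the same order. At least 1 Hbegf UMI was found in 92.2% of control and 91.2% of SM22-SmoM2 Schwann cells, whose median depths were 5969 and 5545.5 UMIs. The shares in fibroblasts were 31.7% and 42.3% at median depths of 12709 and 11169.5. After each cell was thinned to 1500 UMIs, the shares were 67.1% (63.4 to 70.6) and 66.3% (60.6 to 71.7) in Schwann cells and 7.96% (6.38 to 9.79) and 14.0% (12 to 16.3) in fibroblasts. For Areg the thinned share in fibroblasts was 0.291% (0.0601 to 0.849) in control and 3.94% (2.84 to 5.31) in SM22-SmoM2, and the unthinned shares were 1.65% and 9.62%. Endothelial cells, with median depths of 9443 and 7262.5, had an Areg UMI in 0.427% and 1.11% of cells unthinned, below the fibroblasts of the same library. Thinned shares were 0.882% and 0% in Schwann cells and 0.733% and 1.06% in muscle cells, so in control neither was below the fibroblasts.

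Btc encodes betacellulin, a ligand of Egfr and Erbb4, and is the last of the 4 chromosome 5 genes (91357261 to 91402994, minus strand). Schwann cells were at 125 (115 to 136) CPM in control and 109 (95.1 to 124) in SM22-SmoM2, a log2 ratio of -0.20 (-0.43 to 0.03), and held 89.8% and 84.6% of its UMIs. Fibroblasts were far lower at 2.73 (1.92 to 3.76) and 3.25 (2.31 to 4.44), and immune cells had no Btc UMI, which allows up to 4.37 and 8.28 CPM. In endothelial cells there were 23 UMIs in control and 1 in SM22-SmoM2, a log2 ratio of -2.74 (-8.10 to -0.11). Of the Schwann clusters, with both libraries joined, the one with Sostdc1, Fgf5 and Egfl8 among its leading genes was at 195 (177 to 214), and the cycling one, with Crym and Pbk, was at 72.9 (58.5 to 89.8).

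Tgfa encodes transforming growth factor alpha, a ligand of Egfr, and lies on chromosome 6 (86195223 to 86275719, plus strand). It had 60 UMIs in control and 19 in SM22-SmoM2, of which endothelial cells held 85.0% and 89.5%. Their level was 6.21 (4.63 to 8.17) CPM in control and 7.15 (4.16 to 11.4) in SM22-SmoM2, a log2 ratio of 0.20 (-0.68 to 1.02). Fibroblasts had 2 UMIs and 1 UMI, too few for a ratio. Within the endothelial clusters Tgfa was at 8.39 (6.07 to 11.3) in the one led by Ccl21a and Lrg1 and at 4.18 (2.28 to 7.01) in the one led by Cldn5 and Gpihbp1, intervals that overlap.

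Nrg1 encodes neuregulin 1, the ligand of Erbb3, and lies on chromosome 8 (31814551 to 32884029, minus strand). Its UMIs were mostly those of fibroblasts, 76.1% in control and 88.5% in SM22-SmoM2, where fibroblasts held 45.1% and 67.4% of all UMIs. Fibroblasts were at 13.8 (11.9 to 16) CPM in control and 7.08 (5.66 to 8.76) in SM22-SmoM2, a log2 ratio of -0.97 (-1.35 to -0.59), just under 2-fold lower. Schwann cells, where its receptor Erbb3 was highest, had 37 Nrg1 UMIs in control and 5 in SM22-SmoM2, or 7.82 (5.51 to 10.8) and 2.48 (0.804 to 5.78) CPM, a log2 ratio of -1.66 (-3.36 to -0.31). Immune cells had 17 and 3 UMIs, or 24.8 (14.4 to 39.7) and 8.28 (1.71 to 24.2) CPM, a log2 ratio of -1.58 (-4.00 to 0.21), and muscle cells had none, which allows up to 1.60 and 5.61 CPM. The immune value compares different cells, since all 17 control UMIs lay in the cluster led by H2-Aa, Cd74 and H2-Ab1, which had 37 control and 3 SM22-SmoM2 cells. In the immune cluster led by Lyz2 and C1qb, with 44 and 29 cells, there were 0 and 2 Nrg1 UMIs.

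**Figure D2:**
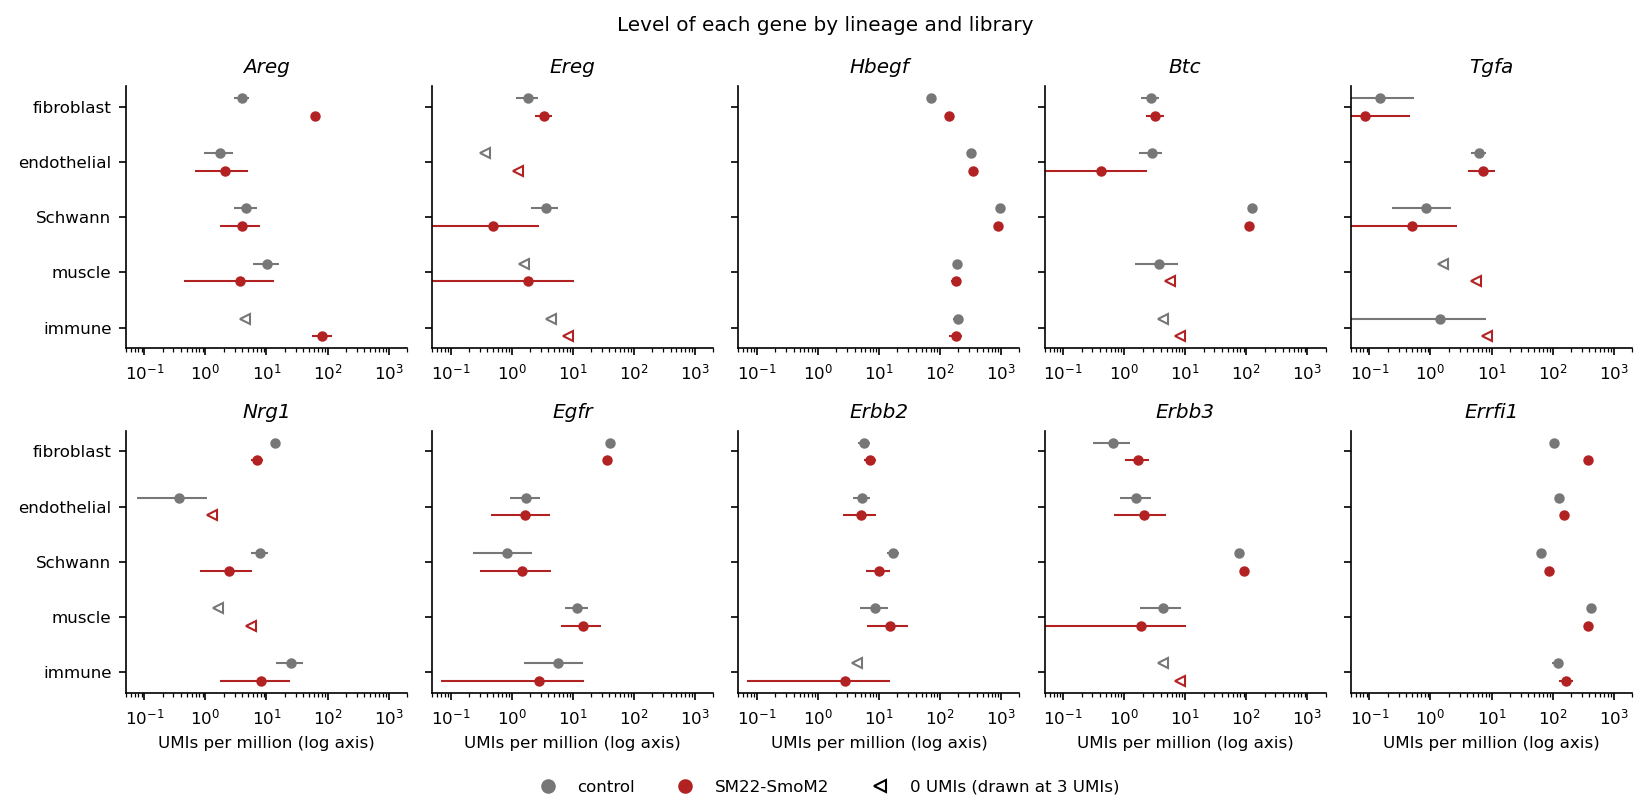
Level of each gene (x axis, CPM, log axis) in 5 lineages for control (gray) and SM22-SmoM2 (red). Points are summed levels of 1 library, lines are 95% Poisson intervals, and open triangles mark lineages with 0 UMIs drawn at 3 UMIs. Hbegf was highest in Schwann cells (948 and 888), Egfr in fibroblasts (41.5 and 36.2), Erbb3 in Schwann cells (77.1 and 91.7) and Errfi1 in muscle cells of the control library (431).

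Egfr, the receptor of Areg, Hbegf, Ereg, Btc and Tgfa, lies on chromosome 11 (16752203 to 16918158, plus strand). Fibroblasts held 86.4% of its UMIs in control and 94.0% in SM22-SmoM2. The fibroblast level was 41.5 (38.2 to 45.1) CPM in control and 36.2 (32.9 to 39.8) in SM22-SmoM2, a log2 ratio of -0.20 (-0.38 to -0.01). Of the 5 lineages muscle cells followed at 11.7 (7.36 to 17.8) and 15 (6.46 to 29.5), while endothelial cells were at 1.71 and 1.68 and Schwann cells at 0.845 and 1.49. After thinning, 6.21% (4.82 to 7.87) of control and 4.71% (3.51 to 6.18) of SM22-SmoM2 fibroblasts had an Egfr UMI. Unthinned shares were 36.3% and 30.1% in fibroblasts against 0.588% and 0.680% in Schwann cells. Among the 5 lineages, the one with the most Egfr was therefore the one with the lowest Hbegf CPM, and those with the most Hbegf and Btc had little Egfr. The 16 control keratinocytes, outside these lineages, had both, with Egfr at 29.7 (13.6 to 56.3) CPM from 9 UMIs and Hbegf at 211 (162 to 269).

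Erbb2, the shared partner receptor, lies on the same chromosome (98412470 to 98437716, plus strand). It was spread over the lineages, at 16.9 (13.4 to 21.0) CPM in control and 9.91 (6.05 to 15.3) in SM22-SmoM2 Schwann cells, a log2 ratio of -0.77 (-1.56 to -0.05). Fibroblasts were at 5.75 (4.54 to 7.17) and 7.16 (5.73 to 8.85), muscle cells at 8.54 (4.88 to 13.9) and 15 (6.46 to 29.5), and endothelial cells at 5.24 (3.79 to 7.06) and 5.05 (2.61 to 8.81). In control Schwann cells stood above fibroblasts and endothelial cells beyond their intervals, and in SM22-SmoM2 these 4 lineages overlapped.

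Erbb3, the receptor of Nrg1, lies on chromosome 10 (128567523 to 128589652, minus strand). Schwann cells were at 77.1 (69.4 to 85.5) CPM in control and 91.7 (78.9 to 106) in SM22-SmoM2, a log2 ratio of 0.25 (-0.01 to 0.51), and held 90.8% and 87.3% of its UMIs. An Erbb3 UMI was found in 39.7% and 43.9% of Schwann cells, or 10.6% (8.38 to 13.1) and 17.7% (13.5 to 22.5) after thinning, against 0.777% and 1.63% of fibroblasts unthinned. Fibroblasts had 9 UMIs in control and 20 in SM22-SmoM2, or 0.663 (0.303 to 1.26) and 1.67 (1.02 to 2.57) CPM, a log2 ratio of 1.33 (0.13 to 2.65). Endothelial cells, at 1.58 (0.843 to 2.71) and 2.10 (0.683 to 4.91), were not lower than that. With 12 clusters the log2 ratio in fibroblasts was 0.31, under 2-fold.

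Errfi1, the inhibitor of the receptor kinase, lies on chromosome 4 (150853919 to 150868892, plus strand). Fibroblasts had 1459 UMIs in control and 4496 in SM22-SmoM2, or 107 (102 to 113) and 375 (364 to 386) CPM, a ratio of 3.49 and a log2 ratio of 1.80 (1.72 to 1.89). The difference was spread over more cells than that of Areg. An Errfi1 UMI was found in 38.8% of control and 53.0% of SM22-SmoM2 fibroblasts, or 11.5% (9.58 to 13.6) and 26.8% (24.2 to 29.6) after thinning. Among the other lineages muscle cells were highest at 431 and 383 (333 to 440), with a log2 ratio of -0.17 (-0.40 to 0.05). Endothelial cells were at 125 (118 to 133) and 152 (137 to 168), a log2 ratio of 0.28 (0.10 to 0.45), and Schwann cells at 63.8 (56.8 to 71.4) and 87.7, a log2 ratio of 0.46 (0.18 to 0.73). The 51 unnamed SM22-SmoM2 cells, which are not part of the fibroblast value, were at 974 (876 to 1081), above every lineage. With 30 clusters, or with the listed genes kept in the clustering, the fibroblast log2 ratio was 2.59 and 2.78, with 944 and 889 control fibroblasts in place of 1030.

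Of the 10 genes, 9 had at least 10 UMIs in fibroblasts, and 3 of them (Areg, Erbb3 and Errfi1) were past 2-fold higher in SM22-SmoM2 fibroblasts, where 7.45% of all 14087 genes were. None was past 2-fold lower, against 7.38% of all genes. The call of Erbb3 rested on 9 and 20 UMIs. The median log2 ratio of the 9 genes was 0.89, and that of all genes -0.07. The 10 genes were chosen with earlier results of these data known, so the comparisons with all genes are a description only. In endothelial cells 0 of 8 genes were past 2-fold higher (2.67% of all genes) and 1, Btc, lower (4.46%). In Schwann cells 0 of 8 were higher (3.14%) and 2, Ereg and Nrg1, lower (5.13%), and the median was -0.21 against -0.08 for all genes. Muscle cells had 0 of 5 higher (3.74%) and 1, Areg, lower (8.31%). Immune cells had 1 of 4 higher, Areg (6.59%), and 1 lower, Nrg1 (13.9%). Each of these calls outside fibroblasts rested on 5 or fewer UMIs in 1 of the libraries.

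**Figure D3:**
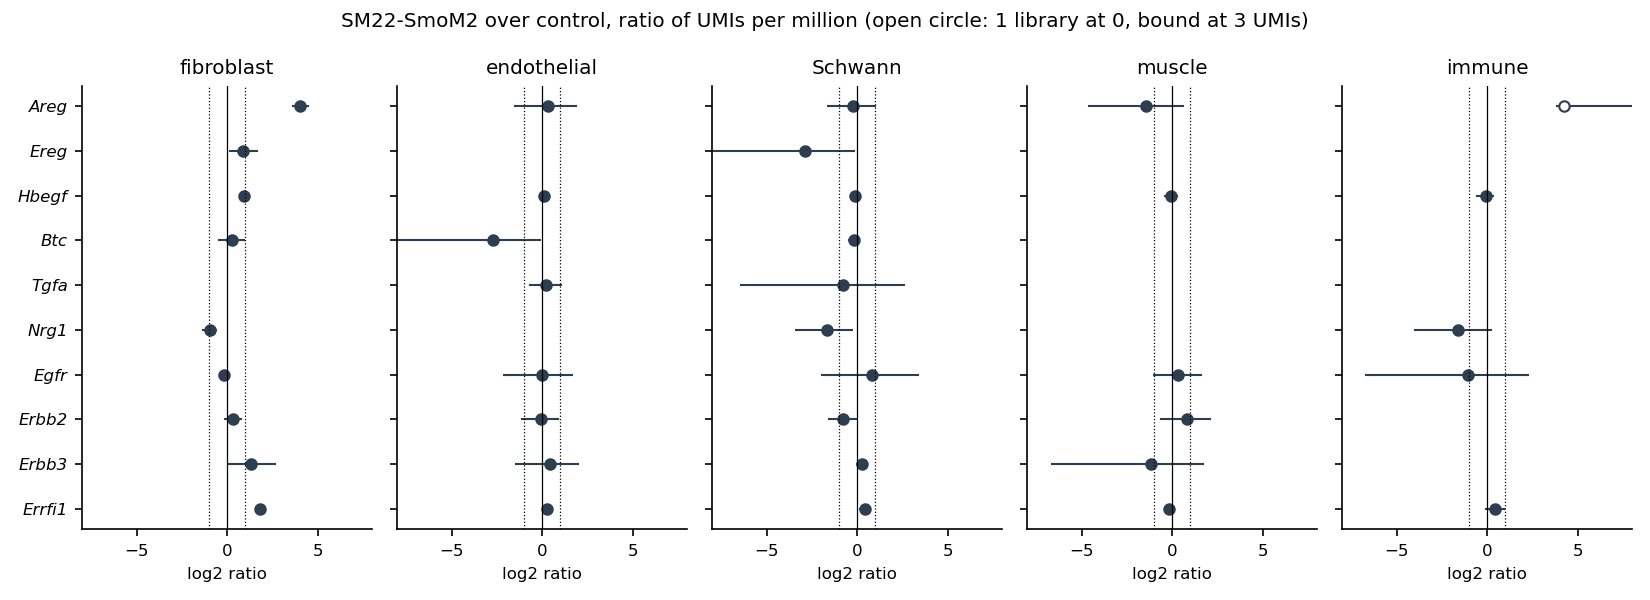
Log2 ratio of CPM, SM22-SmoM2 over control (x axis), for each gene in 5 lineages. Points are ratios between 2 libraries, lines are 95% counting intervals, dotted lines mark 2-fold, and the open circle is a lower bound against 0 control UMIs. In fibroblasts Areg (4.02) and Errfi1 (1.80) lay furthest to the right and Nrg1 (-0.97) furthest to the left.

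Fibroblasts were then divided into 15 sub-clusters without the genes described here, of which 3 had leading genes that marked a different cell type more often than fibroblasts and were left out. Those left out held 74 control and 10 SM22-SmoM2 cells, with fibroblast markers at 65195 and 57028 CPM in sum. The largest, sub-cluster 11 with 59 and 7 cells, was left out for 1 leading gene, the melanocyte marker Mlana. The libraries filled different sub-clusters. Sub-clusters 3, 4, 5 and 6, in which all 5 Hh genes examined (Gli1 and Ptch1 among them) were raised, had 217, 194, 191 and 122 SM22-SmoM2 cells against 11, 7, 5 and 33 control cells. Sub-clusters 7, 8 and 10 had 141, 115 and 85 control cells and 0, 4 and 0 SM22-SmoM2 cells. Only sub-clusters 1 (led by Igfbp2, Mmp13 and Mmp3) and 2 (led by Crabp1, Igfbp2 and Prss35) had at least 50 cells of each library. The fibroblast ratios above thus compare populations of different makeup.

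Areg in the SM22-SmoM2 library was concentrated in sub-cluster 4, led by Areg itself, Mmp13, Wif1 and Hmox1. Its 194 SM22-SmoM2 cells held 665 of the 758 Areg UMIs, in 68 cells, at 266 CPM. They also held 36 of the 41 Ereg UMIs and were highest of the SM22-SmoM2 sub-clusters for Hbegf, at 284, and Errfi1, at 979. Sub-cluster 5, led by Egfl6, Wif1 and Igfbp2, was next with Areg at 27.9, Hbegf at 207 and Errfi1 at 785. Sub-clusters 3 and 6 had the Hh genes at 330 and 553 CPM in sum, against 208 in sub-cluster 4 and 305 in sub-cluster 5, yet Areg at 1.72 and 8.41 and Errfi1 at 27.5 and 49.1. The level of Hh genes and that of the ligands were therefore not ordered alike among these sub-clusters. The 19 immediate early and heat shock genes that also respond to cell dissociation summed to 10707 and 11017 CPM in sub-clusters 4 and 5 and to 6392 and 9107 in sub-clusters 3 and 6, and their part in these levels was not tested.

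In the control library Areg was highest in sub-cluster 12, led by Trf, Cst6 and Thbs4, at 55.5 CPM, where 36 UMIs lay in 4 of 57 cells. That level rested on 1 cell, which held 32 of the 36. Control sub-cluster 7, led by Eln, Nov and Dlk1, was highest for Hbegf at 190, Errfi1 at 349 and Nrg1 at 27.7 among sub-clusters with over 10 control cells, and the immediate early list there summed to 9782. Egfr had a different pattern, with 109 CPM in control sub-cluster 12 and 57.1 in sub-cluster 1, and 15.7 in sub-cluster 2. Nrg1 was at 2.58, 6.40 and 4.47 CPM in SM22-SmoM2 cells of sub-clusters 3, 4 and 5 and had no UMI in sub-cluster 6 of either library, against 17.9 and 18.1 in SM22-SmoM2 cells of sub-clusters 1 and 2.

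**Figure D4:**
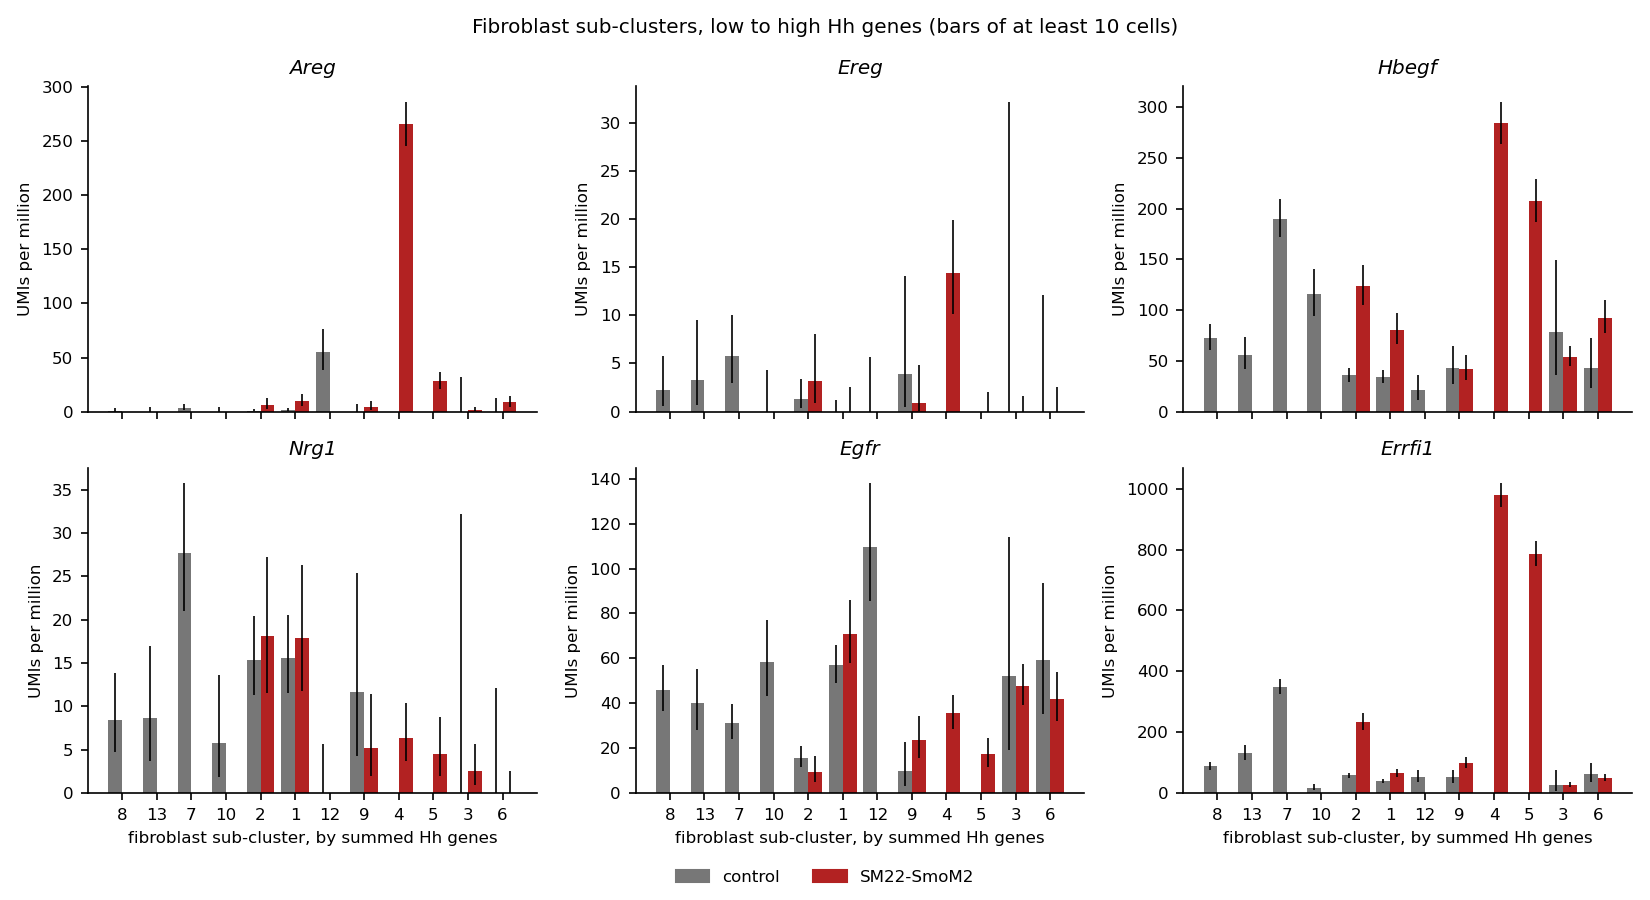
Level of 6 genes (y axis, CPM) in the fibroblast sub-clusters, ordered from low to high summed Hh genes (x axis), for control (gray) and SM22-SmoM2 (red). Bars are summed levels of sub-clusters with at least 10 cells of that library and lines are 95% Poisson intervals. Areg (266), Ereg, Hbegf (284) and Errfi1 (979) peaked in SM22-SmoM2 cells of sub-cluster 4. Nrg1 peaked in control cells of sub-cluster 7 (27.7), which had few Hh transcripts, but was at 5.83 in control cells of sub-cluster 10, which also had few.

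Without sub-cluster 4, which was singled out after its values were seen, fibroblasts had 51 Areg UMIs in control and 93 in SM22-SmoM2, a log2 ratio of 1.37 (0.86 to 1.89). Ereg then went to 25 and 5 UMIs, a log2 ratio of -1.82 (-3.56 to -0.41), so its direction rested on that sub-cluster. The log2 ratio was 0.50 (0.37 to 0.64) for Hbegf, 1.03 (0.94 to 1.13) for Errfi1 and -0.94 (-1.36 to -0.54) for Nrg1. Areg and Errfi1, and Erbb3 at 1.66 (0.46 to 2.98), were thus past 2-fold in the sum of the remaining fibroblasts. Sub-cluster 5 held 50 of the 93 remaining SM22-SmoM2 UMIs of Areg and 1405 of the 2048 of Errfi1. These 2 ratios therefore do not describe the remaining sub-clusters alike.

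Within the shared sub-clusters the comparison is between cells grouped together without the listed genes, and their likeness was not measured. In sub-cluster 1 the immediate early list summed to 4591 CPM in control and 4703 in SM22-SmoM2, and the 5 Hh genes to 29.8 and 24.8. For sub-cluster 2 these sums were 3923 and 5126, and 12.1 and 27.6. In sub-cluster 1 Hbegf was at 33.9 CPM in control and 80.7 in SM22-SmoM2, a log2 ratio of 1.25 (0.86 to 1.64), and in sub-cluster 2 at 35.6 and 124, a log2 ratio of 1.80 (1.44 to 2.16). Errfi1 was at 39.6 and 65.5 in sub-cluster 1, a log2 ratio of 0.73 (0.32 to 1.12), and at 58.1 and 234 in sub-cluster 2, a log2 ratio of 2.01 (1.74 to 2.29). Areg had 5 control and 14 SM22-SmoM2 UMIs in sub-cluster 1, all 14 in 1 cell, and 2 and 8 UMIs in sub-cluster 2, a log2 ratio of 3.27 (0.95 to 6.55). The log2 ratio of Nrg1 was 0.21 (-0.54 to 0.92) and 0.24 (-0.55 to 0.99), so its lower level over all fibroblasts was not seen inside these sub-clusters. Egfr gave 0.32 (-0.05 to 0.67) and -0.73 (-1.78 to 0.21).

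The fibroblasts were also divided by whether their sub-cluster had at least 3 of the 5 Hh genes raised with both libraries joined. There were 144 control and 809 SM22-SmoM2 cells in such sub-clusters and 886 and 231 in the rest. In the SM22-SmoM2 library Areg was at 80.0 (74.3 to 86.0) CPM in the cells of Hh-raised sub-clusters and 7.86 (4.92 to 11.9) in the other cells, a log2 ratio of 3.35 (2.74 to 4.03). Errfi1 was at 446 (432 to 459) and 141 (128 to 156), a log2 ratio of 1.66 (1.51 to 1.81), and Hbegf at 151 (143 to 159) and 98.2 (87.0 to 111). Nrg1 went the other way, at 3.91 (2.74 to 5.42) in Hh-raised sub-clusters and 17.5 (12.9 to 23.1) in the other cells, a log2 ratio of -2.16 (-2.82 to -1.51). The immediate early list summed to 8800 CPM in the first and 4850 in the second group of SM22-SmoM2 cells. The higher Areg, Errfi1 and Hbegf of the Hh-raised group rested on sub-clusters 4 and 5, and sub-cluster 4 held 665 of its 736 Areg UMIs. In Hh-raised sub-clusters 3, 6 and 9 Errfi1 was at 27.5, 49.1 and 99.5 CPM and Hbegf at 54.2, 92.5 and 41.9, below the other cells. Areg was at 1.72, 8.41 and 4.36 there.

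For control cells this division did not follow their own Hh genes throughout. Of the 144, 88 were in sub-clusters 9 and 12, where some of the 5 genes were raised. Control cells of sub-cluster 9 had the 5 Hh genes at 11.7 CPM in sum, below the 29.8 of control cells in sub-cluster 1, where none was raised. Those of sub-cluster 12 had them at 95.6, with Areg at 55.5 CPM from 36 UMIs, 32 of them in 1 cell. The control library is described for the 56 cells of sub-clusters 3 to 6, where all 5 genes were raised, against the 886 cells where none was. That choice leaves out sub-clusters 9 and 12 and was made after the data were seen. The Hh genes summed to 210 and 14.6 CPM in these groups. Areg was at 3.75 (0.454 to 13.5) and 1.26 (0.707 to 2.08) CPM, Errfi1 at 129 (100.6 to 164) and 112 (106 to 118), and Hbegf at 73.1 (52.0 to 99.9) and 75.3 (70.4 to 80.4), and none of these pairs differed beyond its intervals. Nrg1 had no UMI in the 56 cells and was at 15.3 (13.2 to 17.7) in the others, a log2 ratio of -1.45 or lower against a floor of 3 UMIs.

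Between libraries, in the cells outside the Hh-raised sub-clusters, the log2 ratio was 2.64 (1.63 to 3.69) for Areg, from 15 control and 22 SM22-SmoM2 UMIs. A single SM22-SmoM2 cell held 14 of the 22, and without the top cell of each library 13 and 8 UMIs gave a log2 ratio of 1.38 (-0.09 to 2.76), which spans 0. It was 0.34 (0.17 to 0.50) for Errfi1, 0.38 (0.18 to 0.58) for Hbegf and 0.19 (-0.29 to 0.65) for Nrg1. Btc, low in fibroblasts, had 30 control and 18 SM22-SmoM2 UMIs there, a log2 ratio of 1.35 (0.42 to 2.24).

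Ligand and receptor were then looked for in the same cell, as counts of cells with a UMI of both genes after thinning, beside the number given by the product of the shares. Hbegf and Erbb3 were found together in 51 of 680 control Schwann cells, where the product gives 48.3, and in 35 of 294 SM22-SmoM2 Schwann cells, where it gives 34.5. For Btc and Erbb3 in Schwann cells the counts were 10 against 10.5 and 3 against 5.31. Egfr and Erbb4 are the receptors given above for Hbegf and Btc, and these pairs describe shared detection only. Nrg1, the ligand of Erbb3, was found with it after thinning in 1 control Schwann cell against 0.42 and in 0 SM22-SmoM2 Schwann cells. Unthinned, 2.21% and 1.02% of Schwann cells had both, where the product gives 1.52% and 0.746%. Hbegf and Egfr were together in 6 control fibroblasts against 5.10 and in 11 SM22-SmoM2 fibroblasts against 6.88. In Schwann cells the thinned counts of Hbegf and Erbb3 thus lay near the product, and the counts in fibroblasts were small. Areg and Egfr were not seen together in thinned SM22-SmoM2 fibroblasts, where the product gives 1.93 cells. The 0 of 1040 cells allows a share of up to 0.288% with a UMI of both at the thinned depth, and does not limit the cells with both genes. Unthinned, 40 cells (3.85%) had both, where the product gives 2.89%.

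Areg and Errfi1 were often found in the same SM22-SmoM2 fibroblasts. Of the 100 fibroblasts with Areg, 94 also had Errfi1, where the product gives 53.0, and after thinning 28 cells had both against 11. Of those 100 cells 68 lay in sub-cluster 4, where 189 of 194 SM22-SmoM2 cells had Errfi1. All 23 SM22-SmoM2 fibroblasts with Ereg also had Errfi1 unthinned, but after thinning 3 cells had both, near the 2.41 of the product. Hbegf and Errfi1 were together in 25 control fibroblasts against 9.39 and in 71 SM22-SmoM2 fibroblasts against 39.2 after thinning. The number of UMIs in a cell adds to such counts when unthinned.

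Over the 20 clusters of all cells, the genes with a pattern most like each of the 10 were taken by Pearson's r of log2(CPM + 10). These values are a description over clusters that share libraries. Btc was most like Fam19a5 (0.978), Mlip (0.967) and Scg5 (0.964). Erbb3 was most like Dlx2 (0.986), Sox6 (0.986) and Luzp2 (0.984), and Erbb2 like Emp2 (0.914), Srd5a1 (0.908) and Rbm45 (0.863). The nearest to Egfr were 9130401M01Rik (0.930), Dcn (0.928), a fibroblast proteoglycan, and Serpinf1 (0.916). Tgfa was nearest to Ica1 (0.965), Mall (0.955) and Hoxb9 (0.949). For Hbegf they were Map3k4 (0.863), Ttc9 (0.862) and Erf (0.853), and for Nrg1 Fbxl13 (0.868), 1700024P16Rik (0.861) and Mmp25 (0.846). Those named for Nrg1 had 63 to 76 UMIs over both libraries and at most 5.67 CPM in any cluster, below the 10 added. Scg5, with 74 UMIs, reached 9.91. Such r values rest on few UMIs. Errfi1 came closest to Nab1 (0.822), Gal (0.816) and Ptgir (0.812). Areg had weaker matches in Mt4 (0.737), Utp14b (0.709) and Hk2 (0.708), and Ereg in Neu2 (0.796), Serpinb2 (0.777) and Bdkrb1 (0.760), each of which was highest in cluster 12, where Areg and Ereg were highest too.

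The other genes of the family were rare. Fibroblasts had 9 Egf UMIs in control and 4 in SM22-SmoM2, 4 and 3 of Epgn and 8 of Nrg2 in each library. Nrg3 had no UMI in fibroblasts, Nrg4 had 0 and 1, and Erbb4, the remaining receptor, 1 and 0. Of these 6 genes 2 had at least 10 UMIs in fibroblasts, and neither was past 2-fold.

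Of the 11 shedding genes, which release the ligands or act on that step, 2 were past 2-fold higher in SM22-SmoM2 fibroblasts (7.45% of all genes) and 0 lower (7.38%), with a median log2 ratio of -0.35. Rhbdf2, an iRhom that carries ADAM17 to the surface, was at 1.47 CPM in control and 4.92 in SM22-SmoM2, a log2 ratio of 1.74 (0.99 to 2.55). Adam8, itself a metalloprotease, was the other with 13 and 23 UMIs, a log2 ratio of 1.00 (-0.04 to 2.10). The sheddase Adam17 itself had a log2 ratio of -0.36 (-0.59 to -0.13). The 3 with the most UMIs were Timp3, an inhibitor of ADAM17, at 108 and 212 CPM (log2 ratio 0.98, 0.88 to 1.07), Adam12 at 139 and 99.9 (-0.48, -0.58 to -0.37) and Adam15 at 57.8 and 45.3 (-0.35, -0.51 to -0.19).

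Among 14 receptor adaptors 13 had enough UMIs, 2 were past 2-fold higher (7.45% of all genes) and 0 lower (7.38%), with a median of -0.15. The docking proteins Gab1, at 8.84 and 20.6 CPM (log2 ratio 1.22, 0.90 to 1.55), and Gab2, at 3.09 and 7.08 (1.19, 0.65 to 1.76), were those past 2-fold. Shc1 (-0.43), Ptpn11 (-0.15) and Grb2 (0.01) had the most UMIs. Of the 12 negative regulators 1 was past 2-fold higher, close to that share, and 0 lower, with a median of -0.04. It was Lrig3, a membrane protein of a family known to act on ErbB receptors, at 18.6 and 37.2 CPM (1.00, 0.78 to 1.23). Stub1 (-0.44), Socs3 (0.55) and Sh3kbp1 (-0.70) had the most UMIs there.

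The MAPK feedback genes, which are switched on by the cascade and mostly inhibit it, had 4 of 13 past 2-fold higher (7.45% of all genes) and 1 lower (7.38%), with a median of 0.36. The ERK phosphatase Dusp5 was at 13.8 and 98.0 CPM, a log2 ratio of 2.83 (2.61 to 3.06), and Dusp4 at 4.71 and 16.7, a log2 ratio of 1.82 (1.41 to 2.25). The Sprouty genes Spry1 (1.20, 0.95 to 1.46) and Spry4 (1.22, 0.61 to 1.86) were the others. Etv4, an ETS transcription factor, went the other way with 97 control and 8 SM22-SmoM2 UMIs, a log2 ratio of -3.42 (-4.67 to -2.39). The genes with the most UMIs were Ier3 (0.19), Phlda1 (0.22) and Dusp1 (0.63). Dusp5 was at 264 CPM in SM22-SmoM2 cells of sub-cluster 4, where Areg and Errfi1 were highest, and its log2 ratio was 1.40 (0.77 to 2.03) in sub-cluster 2 and 0.87 (-0.04 to 1.77) in sub-cluster 1.

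Of the 19 immediate early and dissociation genes, 4 were past 2-fold higher (7.45% of all genes) and 0 lower (7.38%), with a median of 0.37. They were Nr4a1, at 85.3 and 355 CPM (2.06, 1.96 to 2.15), Fosl1, at 19.1 and 78.9 (2.05, 1.85 to 2.25), Fosb (1.27, 1.16 to 1.38) and Ier2 (1.03, 0.97 to 1.09). Of those with the most UMIs, Junb had a log2 ratio of 0.90, Jund of -0.41 and Fos of 0.18. In shared sub-cluster 2 Fosl1 gave 1.90 (1.08 to 2.74), Nr4a1 1.31 (0.91 to 1.72), Junb 1.01 (0.90 to 1.12) and Fos -0.16 (-0.31 to -0.02). Such genes also respond to tissue digestion, and whether the libraries differed in that step was not tested.

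**Figure D5:**
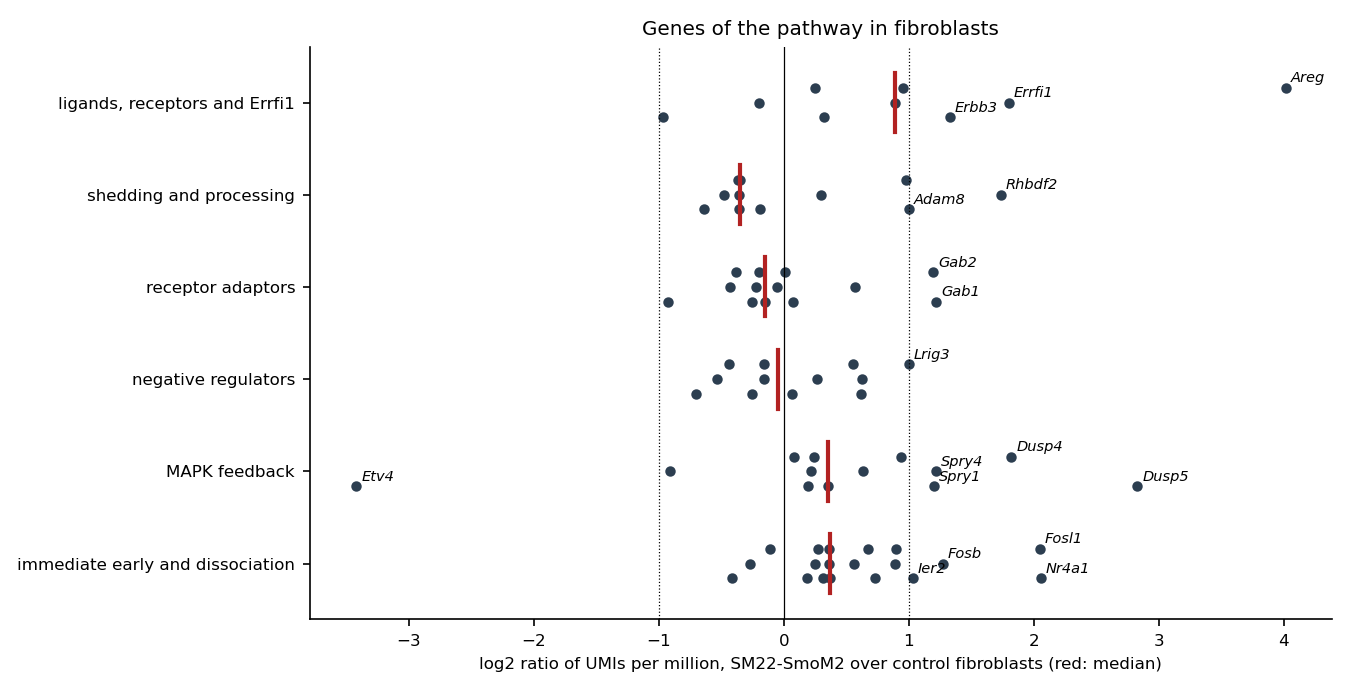
Log2 ratio of CPM in fibroblasts, SM22-SmoM2 over control (x axis), for the genes described here and 5 lists of pathway genes (y axis). Each point is 1 gene with at least 10 UMIs, the vertical position within a list has no meaning, red bars are medians, dotted lines mark 2-fold and genes past 2-fold are labelled. The medians run from -0.35 for shedding genes to 0.37 for immediate early genes and 0.89 for the ligands, receptors and Errfi1.

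In the other lineages the shares of all genes past 2-fold higher and lower were 2.67% and 4.46% (endothelial), 3.14% and 5.13% (Schwann), 3.74% and 8.31% (muscle) and 6.59% and 13.9% (immune). In endothelial cells 1 gene of these 5 lists was, Lrig3, which was lower there with 34 control and 3 SM22-SmoM2 UMIs (-1.72), the opposite direction to fibroblasts. In Schwann cells 1 was, the inhibitor Spry4, lower with 67 and 13 UMIs (-1.14). In muscle cells Fosl1 was higher (1.42) and Sos1 (-1.13) and Dusp4 (-1.03) were lower, each from 3 to 50 UMIs a library. Immune cells (81 and 32) gave 5 genes higher, of which Ier3 had the most UMIs (465 and 508, a log2 ratio of 1.05), and 4 lower, all from 42 or fewer UMIs. The median of the immediate early list was 0.08 in endothelial cells, -0.28 in Schwann cells and -0.12 in muscle cells, against 0.37 in fibroblasts. Dusp5, the feedback gene with the largest fibroblast ratio, had a log2 ratio of 0.02 (-0.28 to 0.30) in endothelial cells and 0.15 (-0.21 to 0.50) in Schwann cells.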

How the data were processed

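Dermal cells of both genotypes were sorted for Tomato and sequenced as 10x 3' single-cell libraries. The authors processed the reads with Cell Ranger and bcl2fastq against mm10, per the labels, and deposited raw UMI counts per gene and cell. The Cell Ranger version, the annotation and the strand setting are not given in the sources used here. The deposited matrices held 2878 and 1802 cells. Cells with at least 200 genes and at most 10% mitochondrial UMIs were kept, 2856 and 1792 of them, with 3128 to 65167 and 2538 to 38806 UMIs per cell. Scrublet at an expected rate of 5% marked 0.175% and 0.614% of cells, and no cell was removed as a doublet. The barcode lists are the full list of the kit, so barcodes shared by the libraries were not counted.

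Counts were scaled to 10000 per cell and clustered by k-means (K = 20, 20 principal components of 2000 variable genes, 50 starts) in Python 3.11.15 with scikit-learn 1.9.0 and scanpy 1.11.5, leaving out 90 listed genes. A cluster took a name when at least 3 markers of 1 list were raised (at least 10 CPM and 1.5-fold over the median of clusters). Fibroblasts were clustered again with K = 15. Poisson, conditional binomial and Clopper-Pearson intervals are exact. The functions were tested on simulated data. With 1 library a condition no test was run. Alternatives covered cell filters, clustering, depth, scaling (TMM factors of edgeR 4.0.16 in R 4.3.3), male cells and minimum UMIs.

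The 10 genes and the lists were chosen with earlier results of these data known. Named besides them were the 3 most alike genes for each of the 10 with at least 50 UMIs, and from each list the 3 genes with the most UMIs and those past 2-fold in fibroblasts with at least 50 UMIs. Adam8, Adam17, the rarest family genes and those named in other lineages were chosen after their values were seen. Loci are from GENCODE on GRCm38, where 27645 of 27998 gene IDs matched, and promoters from RefSeq.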

Additional observations from a re-analysis of the deposited data

Results flagged for a closer look

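Of the 10 genes, 2 had lineage ratios whose counting intervals lay above 0 in 1 lineage and below 0 in another. Ereg had a log2 ratio, SM22-SmoM2 over control, of 0.89 in fibroblasts and of -2.86 in Schwann cells, where the SM22-SmoM2 value rests on 1 UMI. Hbegf had a log2 ratio of 0.96 in fibroblasts and 0.12 in endothelial cells, and of -0.094 in Schwann cells, where the median of all genes was -0.076. Without the top cell of each library its endothelial log2 ratio was 0.095 (-0.021 to 0.210), which spans 0. With 1 library per condition these differences between lineages were not tested.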

How the results depend on the processing

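With 1 library per condition, counting error is the smallest error these values can have, and the spread between animals is unknown. No paired analysis was possible because each condition has 1 library. Of the 98 fibroblast ratios recomputed under the alternatives fixed at the start, 86 moved by less than their counting interval and 12 by more, and of the 295 in other lineages 285 and 10. The log2 ratio in fibroblasts ranged from 3.31 to 4.25 for Areg and from 1.52 to 2.78 for Errfi1 under those alternatives. Alternatives added after seeing the data widened this to 1.37 to 5.24 for Areg and 1.03 to 2.78 for Errfi1. When fibroblasts were limited to the sub-clusters that both libraries filled (1 and 2), also added, Nrg1 had a log2 ratio of 0.22 and Egfr of 0.21. In control fibroblasts, sub-clusters with at least 3 Hh genes raised had log2 ratios to the others of 4.15 for Areg, -0.53 for Errfi1 and -0.77 for Hbegf, and those with all 5 raised, also added, of 1.57, 0.21 and -0.043. In the Areg value of 4.15, 1 cell held 32 of the 38 UMIs of the raised group. Numbers of the 10 genes past 2-fold, which are small, moved as follows. In fibroblasts 5 in place of 3 were higher with no mitochondrial filter, with K = 30 and with the listed genes kept in the clustering, 4 with thinned cells and mean per-cell values, and 2 with a minimum of 30 UMIs, which drops Erbb3. With K = 12 the count was 3, with Ereg (1.31) in place of Erbb3 (0.31). There 1 in place of 0 was lower with Leiden clustering, thinned cells, mean per-cell values, male cells, without the top cell of each library and without the sub-cluster highest in Areg. In endothelial cells 0 in place of 1 were lower with thinned cells, male cells, a minimum of 30 UMIs and without the top cell. In Schwann cells 0 in place of 2 were lower with thinned cells, 4 with male cells, and 1 with a minimum of 30 UMIs or without the top cell. In muscle cells 1 in place of 0 was higher with no mitochondrial filter, Leiden clustering and male cells. There 0 in place of 1 were lower with at most 5% mitochondrial UMIs, K = 30, thinned cells, male cells, a minimum of 30 UMIs and without the top cell, and 2 with no minimum. In immune cells 0 in place of 1 were higher with thinned cells, 0 in place of 1 were lower with thinned cells, mean per-cell values and a minimum of 30 UMIs, and 2 were lower with no minimum. The cause of these moves was not tested, apart from the minimum of UMIs, which sets how many genes are counted.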
